A study of Homo sapiens with 6 samples.

Results

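Integrins and cadherins are the receptors by which cells hold on to extracellular matrix and to each other, and the genes of both families were followed in nascent RNA of A375, a cell line from a human melanoma. Members were all protein-coding genes with a symbol of ITGA or ITGB followed by a digit or letter, without the binding-protein genes ITGB1BP1 and ITGB3BP, and all with CDH followed by a digit. This gave 50 of the 58243 genes counted: 18 integrin α genes, 8 integrin β genes, 23 cadherin genes and ITGBL1, which the symbol rule takes in although it encodes an integrin-β-like secreted protein and not a receptor subunit. Both groups of cells were A375 lines made by stable transfection and kept in Hygromycin B, 3 libraries from cells with an empty vector (EV; B1, B2 and B3) and 3 from cells with a plasmid for HA-tagged human PRL3, a phosphatase encoded by PTP4A3 (PRL3; B9, B10 and B11). Each was pulsed with 500 µM 4-thiouridine (4sU) for 20 min, and RNA that had taken up 4sU was purified and sequenced. The counts are thus meant to reflect RNA made close to the time of harvest, and they do not measure protein. They are reads on exons, whereas the study based its later steps on intron reads, in part because some mRNA may be carried over. A part from the standing pool is therefore not excluded here. Whether each line was a pool or a clone, and whether the 3 libraries of a group came from separate cultures, is not given in the sources used here, so p-values measure the spread between these libraries, which may be technical.

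An integrin is a pair of an α and a β subunit, and the pair sets the ligand: α3, α6 and α7 bind laminins, α1, α2, α10 and α11 bind collagens through an inserted I domain, and α5, αV, α8 and αIIb bind the RGD motif of proteins such as fibronectin. Inside the cell, β tails dock talin, kindlin and ILK, which couple the receptor to actin. Cadherins bind like cadherins on neighbouring cells, and their tails carry catenins; melanocytes are held to keratinocytes by E-cadherin (CDH1), and a change from E-cadherin to N-cadherin (CDH2) is well known in melanoma.

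Between 36532207 and 57952035 reads were counted on genes per library. PTP4A3 checked the labels: it had 161, 212 and 279 normalized counts in the EV libraries and 22328, 28767 and 22065 in the PRL3 libraries. Reads on no annotated exon took 28.7% to 41.1% of uniquely aligned reads in EV libraries and 62.8% to 69.1% in PRL3 libraries (two-sided exact permutation p = 0.1, which is the smallest value 3 against 3 can give), and their part in the results below was not tested. Of the melanocytic markers, SOX10 was present but lower in PRL3 (mean 22796 normalized counts in EV and 12613 in PRL3, log2 -0.85, edgeR adjusted p = 0.00213). MITF went the other way (mean 1378 in EV and 1773 in PRL3, log2 0.36), without overlap but not called (edgeR adjusted p = 0.0738). PMEL was not called (edgeR adjusted p = 0.664). MLANA, TYR, TYRP1 and DCT were too low to be tested, and TYR and MLANA had at most 2 counts in a library. On the list of dedifferentiated melanoma, AXL (-0.40), NGFR (-1.69) and SOX9 (-2.08) were lower in PRL3 (edgeR adjusted p = 0.0351, 7.74e-04 and 1.82e-04), and FOSL1 and EGFR were not called. The keratinocyte list (2 of 5 markers tested, KRT1 at 0 throughout) summed to 3449 to 4382 normalized counts in EV and 831 to 1174 in PRL3 libraries, and the fibroblast list (5 of 5 tested) to 907 to 1101 and 617 to 685. The endothelial list (3 of 5 tested) summed to 369 to 488 normalized counts in EV and 453 to 563 in PRL3 libraries. The part of all these markers in the results was not tested.

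**Figure D1:**
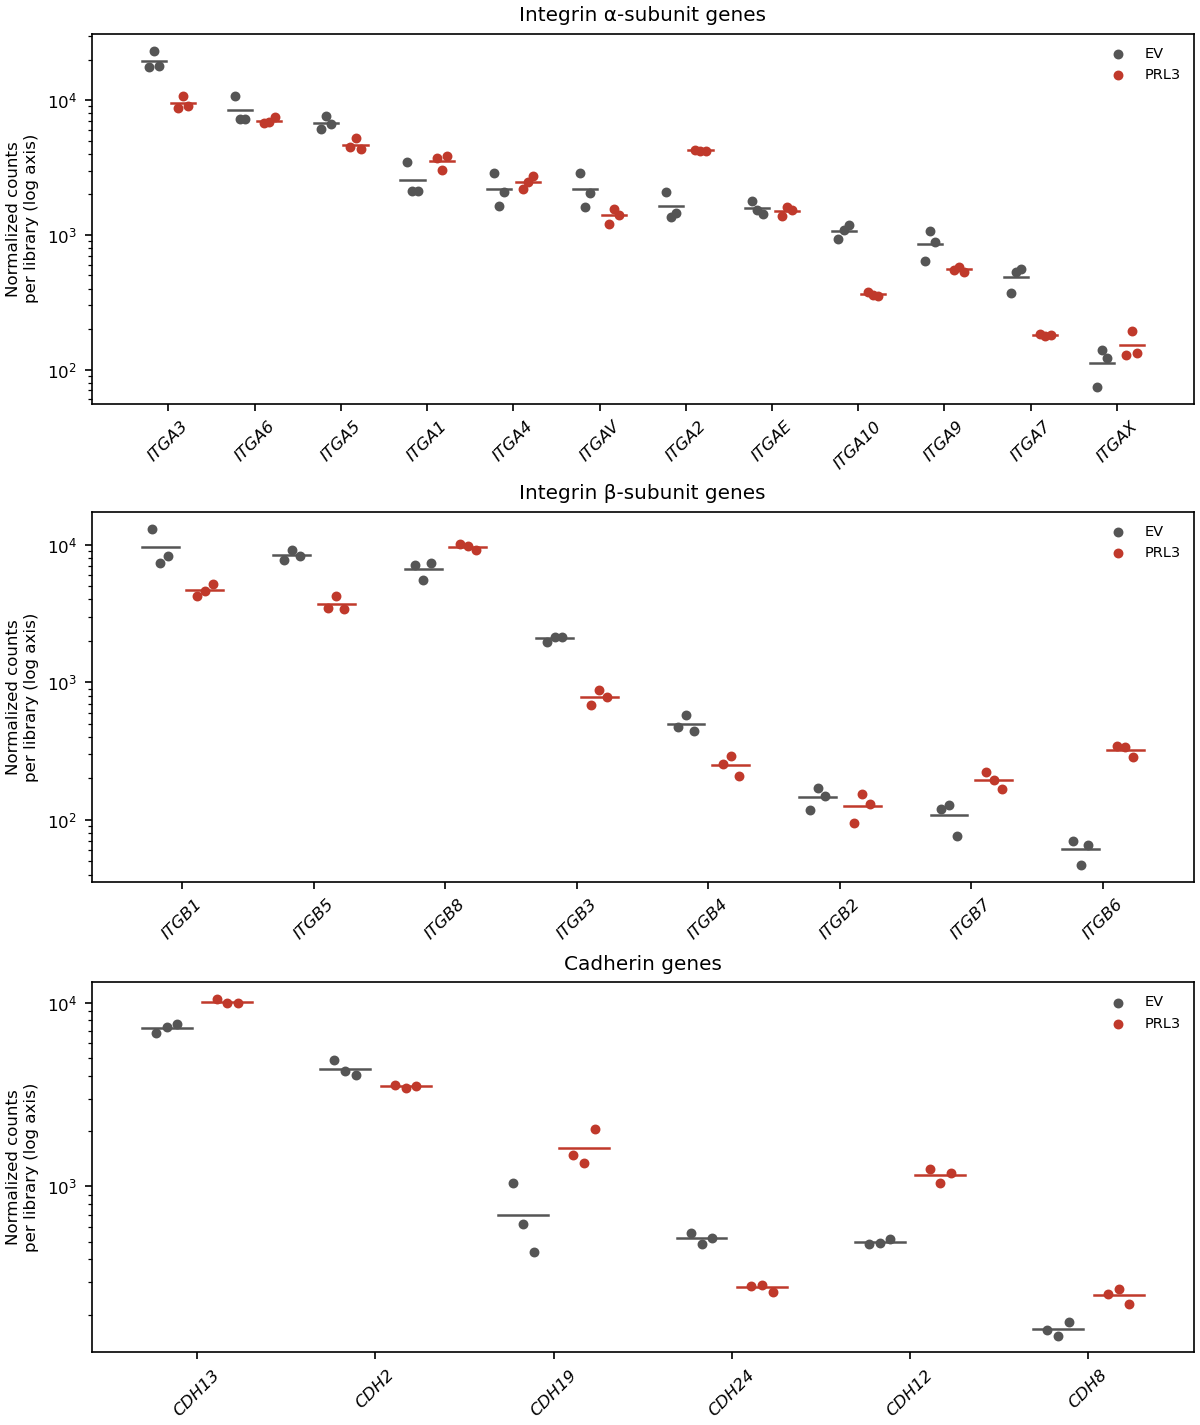
Normalized counts (log axis) of the integrin α, integrin β and cadherin genes with a mean of at least 100, 1 point per library, with EV in grey, PRL3 in red and the group mean as a line. ITGB6, ITGA2 and CDH12 sit higher and ITGA10, ITGB3 and ITGB5 lower in all 3 PRL3 libraries than in any EV library.

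To ask which of these receptors A375 cells transcribe, levels were first ordered in the EV libraries, as normalized counts per kb of exon, a scale on which genes of different length can be compared. The laminin receptor gene ITGA3 led the α genes at 2010 ± 328 (SD, n = 3), followed by ITGA6 at 1266 ± 308 and the fibronectin receptor gene ITGA5 at 922 ± 105. The ranges of these 3 genes did not overlap on this scale. ITGAE, ITGA2, ITGA4, ITGA10, ITGA1, ITGAV and ITGA9 lay between 239 and 104, each overlapping its neighbour. Per kb of coding length ITGA3 (5085 to 6765) stayed apart. There ITGA6 (2071 to 3099) and ITGA5 (1930 to 2420) overlapped, so no order between them was shown, and ITGAE went from place 4 to 8. Among β genes the order per kb of exon was ITGB5 (1284 ± 107), ITGB1 (657 ± 212), ITGB8 (442 ± 64.4), ITGB3 (305 ± 15.0) and ITGB4 (73.6 ± 10.5), each apart from the next on that scale. Per kb of coding length, ITGB1, ITGB5 and ITGB8 overlapped (2642 to 4697, 3106 to 3668 and 2420 to 3212), so no order among these 3 was shown there. The level of ITGB3 is understated, since part of its exons gives no counts as described below, so its place in the order and its share are not established. CDH13, which encodes T-cadherin, a cadherin anchored to the membrane by a lipid and without a catenin-binding tail, led the cadherins at 659 ± 34.9, above CDH2 at 509 ± 52.1. CDH24, CDH19 and CDH12 came next at 139 ± 9.25, 102 ± 45.2 and 88.3 ± 3.13, and CDH19 overlapped both neighbours. E-cadherin was near 0, as CDH1 had at most 12 counts in any of the 6 libraries, and P-cadherin (CDH3) at most 26.

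In all, 36 of the 50 members passed edgeR's filter on low counts, 26 of them with a mean normalized count of at least 100, and 14 did not pass. Of the 36, 12 were lower and 7 higher in PRL3 by edgeR's quasi-likelihood test at a Benjamini-Hochberg adjusted p under 0.05, which is 33.3% and 19.4%. The same call took 22.7% of all 23884 tested genes lower and 20.0% higher, and 31.6% and 15.2% of the 14443 tested protein-coding genes, so the shares of members called were near those of other protein-coding genes. Integrin α genes had 6 lower and 1 higher of 14 tested (median log2 fold change -0.30), integrin β genes 4 lower and 3 higher of 8 (median -0.59), and cadherins 2 lower and 3 higher of 13 (median 0.48), beside a median of 0.11 over all tested genes and -0.15 over protein-coding genes. The α median turned to 0.19 when library size alone set the scale, and the cadherin median to -0.044 without the low-count filter. Libraries of the groups did not overlap for 13 members that were lower and 10 that were higher in PRL3 (36.1% and 27.8%, against 26.6% and 29.7% of all tested genes and 36.7% and 22.2% of protein-coding genes). Scaling by library size alone gave 6 lower and 12 higher members, upper-quartile scaling 9 and 9, and scaling by all uniquely aligned reads 15 and 3, so the split between directions depended on the scale. The calls of ITGA2, ITGA3, ITGA7, ITGA10, ITGB1, ITGB3, ITGB5, ITGB6 and CDH12 were kept under all 10 alternatives tried and without any 1 of the 6 libraries.

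**Figure D2:**
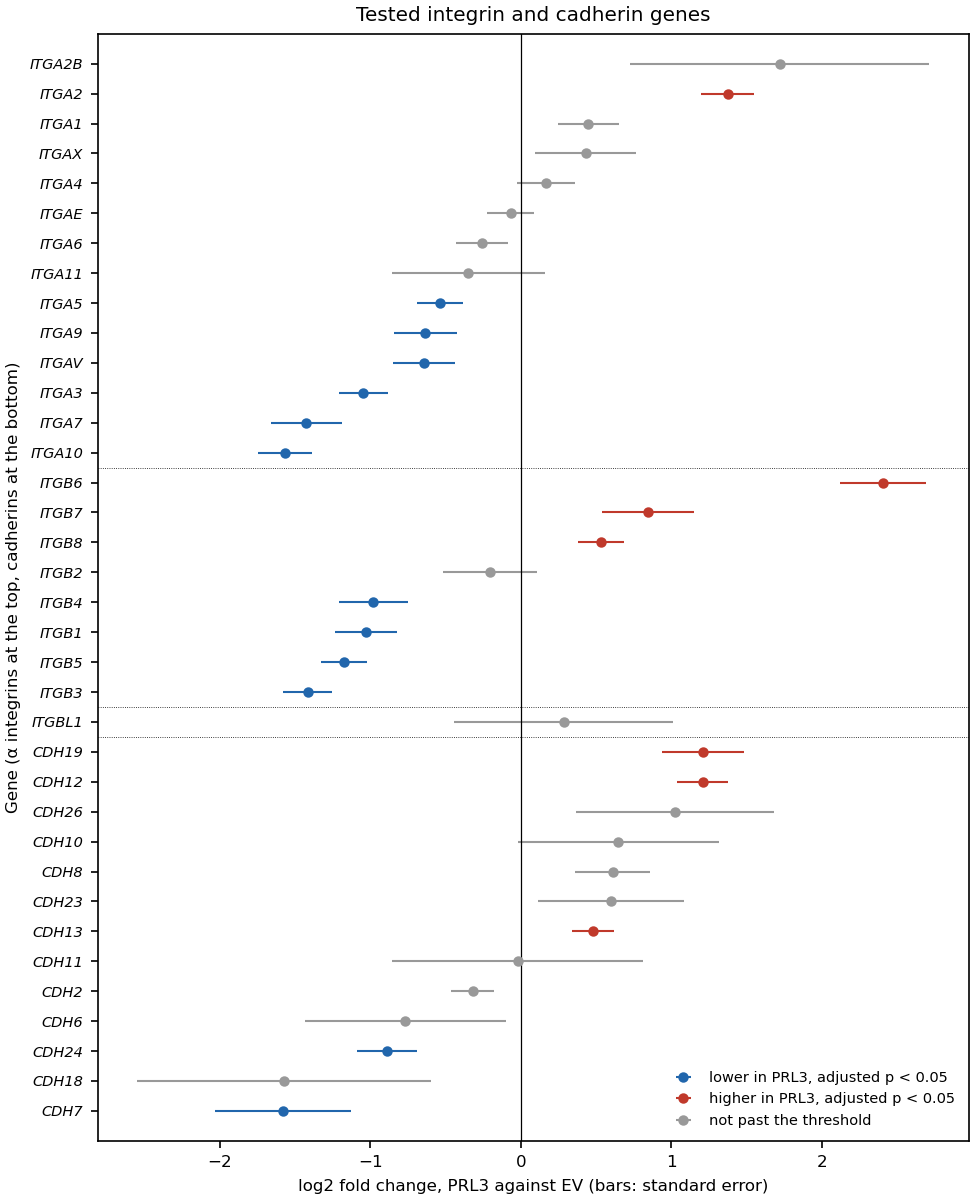
Log2 fold change of PRL3 against EV with its standard error for the 36 tested members, α integrins at the top, then β integrins, ITGBL1 and cadherins. Values run from -1.58 (CDH7) to 2.40 (ITGB6), and both families hold members past the threshold on either side of 0.

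To show the DNA from which members of either direction start, the stretch before the start site is printed for the 2 genes with the smallest p in each direction among called members that have a single start in the RefSeq promoter table (GRCh38.p14) and at least 150 bases outside the annotated gene. Of the 50 members 30 matched the table, 18 of them with a single entry, and no other members were considered for printing. Capitals mark a Sp1 box (GGGCGG or its complement) or the E-box CACCTG, which the SNAI and ZEB repressors bind, found by script on either strand. The regions are chr1:145910112-145910300 (minus strand) for ITGA10, chr12:54419267-54419516 (minus strand) for ITGA5, chr5:52989102-52989339 (plus strand) for ITGA2 and chr2:160200314-160200522 (minus strand) for ITGB6.
ITGA10 (lower in PRL3): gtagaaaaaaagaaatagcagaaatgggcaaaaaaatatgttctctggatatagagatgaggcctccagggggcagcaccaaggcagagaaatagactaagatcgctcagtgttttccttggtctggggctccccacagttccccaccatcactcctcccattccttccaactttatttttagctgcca
ITGA5 (lower in PRL3): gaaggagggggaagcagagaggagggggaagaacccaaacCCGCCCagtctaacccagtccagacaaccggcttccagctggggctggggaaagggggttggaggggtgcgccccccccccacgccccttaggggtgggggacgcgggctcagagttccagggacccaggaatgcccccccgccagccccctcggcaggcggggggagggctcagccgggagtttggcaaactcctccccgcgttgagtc
ITGA2 (higher in PRL3): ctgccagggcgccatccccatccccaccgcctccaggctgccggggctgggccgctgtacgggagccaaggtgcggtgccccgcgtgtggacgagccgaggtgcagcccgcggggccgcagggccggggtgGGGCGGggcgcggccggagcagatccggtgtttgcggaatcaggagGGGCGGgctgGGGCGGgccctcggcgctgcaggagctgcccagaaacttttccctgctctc
ITGB6 (higher in PRL3): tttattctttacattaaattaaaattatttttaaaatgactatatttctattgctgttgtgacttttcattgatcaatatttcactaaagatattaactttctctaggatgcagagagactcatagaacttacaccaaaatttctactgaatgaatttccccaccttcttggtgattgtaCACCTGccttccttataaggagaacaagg
The full table windows of ITGA2 and ITGA5 were 76.4% and 70% G or C and those of ITGA10 and ITGB6 48.4% and 30%, beside a median of 58% over all promoters, so a GC-rich and a GC-poor start were found in each direction. GGGCGG was present 3 times in the ITGA2 stretch and 1 time in that of ITGA5, in 6 of the 18 members with a single entry and in 42.6% of all 35116 promoter windows. CACCTG was present in the ITGB6 stretch and in 2 of the 18 members, against 17.5% of all promoters. Of the other motifs searched, CATGTG was found in 2 of the 18 (9.42% of all promoters), and CACGTG and TGANTCA, the AP-1 site, in 0 of 18 (6.34% and 6.57%). CACGTG and CATGTG are E-boxes that MITF can bind. A match is a description of these letters and not of binding.

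Among β subunits, ITGB5, ITGB3, ITGB1 and ITGB4 were lower in PRL3, and ITGB6, ITGB8 and ITGB7 were higher. ITGB5 encodes the partner of αV in αVβ5, and had 7701, 9092 and 8312 normalized counts in EV libraries B1 to B3 and 3462, 4259 and 3384 in PRL3 libraries B9 to B11. No PRL3 library reached the lowest EV library, and the gene was 2.26-fold lower (log2 fold change -1.18 ± 0.15 SE, edgeR adjusted p = 5.98e-05). ITGB3, the β subunit of αVβ3, a receptor known from invasive melanoma, had 1968, 2148 and 2142 against 688, 871 and 783 (-1.42 ± 0.16, edgeR adjusted p = 2.48e-05). These ITGB3 counts are partial, because 2266 of its 6829 exon bases are shared with a readthrough gene on the same strand, where htseq-count in its default mode assigns reads to neither gene. ITGB1, the common β subunit that pairs with most α chains, had 13091, 7363 and 8228 against 4247, 4638 and 5165 (-1.03 ± 0.20, edgeR adjusted p = 0.00125). EV library B1 stood above the other EV libraries for ITGB1, and without it the log2 fold change was -0.73 and still called. ITGB4, which with α6 forms the laminin receptor of hemidesmosomes, had 470, 579 and 445 against 256, 292 and 208 (-0.98 ± 0.23, edgeR adjusted p = 0.00352), a call lost with library size alone (-0.49, 0.0937).

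ITGB6, which with αV binds and activates latent TGF-β in epithelia, showed the largest log2 fold change of any tested member. It had 70.6, 46.9 and 65.5 normalized counts in EV libraries and 343, 340 and 288 in PRL3 libraries, a 5.29-fold rise (log2 2.40 ± 0.29 SE, edgeR adjusted p = 3.20e-05) from a low level. ITGB8, the β subunit of αVβ8, another receptor for latent TGF-β, had 7090, 5583 and 7411 against 10104, 9776 and 9195 (0.53 ± 0.15, edgeR adjusted p = 0.0129), with all PRL3 libraries above all EV libraries. Scaled by all uniquely aligned reads, the ITGB8 difference was 0.060 and not called. ITGB7, a subunit of lymphocyte homing receptors, had 121, 129 and 76.4 against 222, 195 and 166 (0.84 ± 0.31, edgeR adjusted p = 0.0406). That call was lost without EV library B3 (edgeR adjusted p = 0.0761) and without PRL3 library B9, B10 or B11 (0.150, 0.113 and 0.0720), and also with RLE scaling (0.0529) and with all uniquely aligned reads (0.401). ITGB2, the leukocyte β2 subunit, had 117, 171 and 150 against 94.7, 155 and 130, and the groups overlapped (edgeR adjusted p = 0.633). The leukocyte marker list (2 of 5 tested, none at 0 in every library, PTPRC with at most 12 counts) summed to 10.9 to 14.6 normalized counts in EV and 27.9 to 46.1 in PRL3 libraries, under the level of ITGB7 and ITGB2 in each.

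αV, the common partner of β3, β5, β6 and β8, was itself lower. ITGAV had 2905, 1619 and 2038 normalized counts in EV libraries and 1216, 1568 and 1417 in PRL3 libraries (-0.64 ± 0.21, edgeR adjusted p = 0.0225). The groups were separated by a narrow gap, and the call was lost without EV library B1 (edgeR adjusted p = 0.0751), PRL3 library B9 (0.111) or PRL3 library B11 (0.0728). The fibronectin receptor gene ITGA5 had 6074, 7617 and 6720 against 4466, 5276 and 4343 (-0.53 ± 0.15, edgeR adjusted p = 0.0122), without overlap, and its call was lost without PRL3 library B9 (0.0604) or B11 (0.0791). Both calls were also lost when only protein-coding genes were fitted, when library size alone set the scale and with upper-quartile factors. ITGA5 was the only member found on the list of genes that the study gives for nascent reads gathered near the gene start in PRL3 cells, a list made from these samples. The copy of the list that was read may be cut short, so other members on it are not excluded. ITGA2B, the platelet αIIb subunit, had at most 42.2 normalized counts, with 2 of the 4 platelet markers at 0 in every library and the list summing to 0 in EV and to at most 5.36 in PRL3 libraries, and did not pass the test (edgeR adjusted p = 0.183).

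Of the 3 laminin-binding α genes, ITGA3 and ITGA7 fell. ITGA3, the leading α gene in EV, had 17595, 23406 and 18113 normalized counts in EV libraries and 8704, 10753 and 9149 in PRL3 libraries, a 2.07-fold fall without overlap (log2 -1.05 ± 0.16 SE, edgeR adjusted p = 2.45e-04). ITGA7, the laminin receptor subunit best known from muscle, had 368, 528 and 557 against 184, 177 and 180 (-1.42 ± 0.24, edgeR adjusted p = 3.57e-04). In ITGA6 the groups overlapped, at 10831, 7237 and 7293 against 6749, 6876 and 7566 (-0.26 ± 0.17, edgeR adjusted p = 0.255), and the sign turned to 0.24 with library size alone, while with all uniquely aligned reads ITGA6 was called lower (-0.74, edgeR adjusted p = 0.00685).

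The collagen-binding α genes went both ways. ITGA2, whose product pairs with β1 as a receptor for fibrillar collagen, had 2101, 1362 and 1458 normalized counts in EV libraries and 4310, 4215 and 4227 in PRL3 libraries. The lowest PRL3 library was above the highest EV library, and the gene was 2.59-fold higher (log2 1.37 ± 0.18 SE, edgeR adjusted p = 5.58e-05). ITGA10, known from cartilage, had 934, 1094 and 1194 against 380, 356 and 352, 2.96-fold lower without overlap (-1.57 ± 0.18, edgeR adjusted p = 2.74e-05). ITGA1, the gene next to ITGA2 on chromosome 5, had 3488, 2121 and 2129 against 3723, 3011 and 3826, with overlap (0.45 ± 0.20, edgeR adjusted p = 0.0877). Without EV library B1, which lay above the other EV libraries, ITGA1 was higher by 0.73 (edgeR adjusted p = 0.00349), and with all uniquely aligned reads as the scale it was -0.041. ITGA1 was also called higher when scaled by library size alone or by upper-quartile factors, and among protein-coding genes. The same call came with at least 10 counts in every library, when no gene was filtered and by limma-voom. Over these alternatives the adjusted p ran from 0.00153 to 0.048. On the same strand, 499 exon bases of ITGA1 are shared with PELO and 571 with the pseudogene RPL17P21. ITGA11 had 23.6 to 62.7 normalized counts over the 6 libraries and overlapping groups.

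The other α genes showed smaller differences. ITGA9, a receptor for tenascin and osteopontin, had 636, 1071 and 881 normalized counts in EV libraries and 551, 581 and 535 in PRL3 libraries (-0.63 ± 0.21, edgeR adjusted p = 0.0243), lower without overlap. This call was lost without EV library B2 (edgeR adjusted p = 0.11) and without PRL3 library B9, B10 or B11 (0.0831, 0.0662 and 0.0977), and also with library size alone (0.594), upper-quartile factors (0.0946) and protein-coding genes only (0.0672). ITGA4, which binds fibronectin and VCAM1, had 2862, 1654 and 2093 against 2185, 2485 and 2752 (0.17 ± 0.19, edgeR adjusted p = 0.523), and the groups overlapped. With library size alone ITGA4 and ITGAX were called higher (0.66 and 0.91, edgeR adjusted p = 0.0115 and 0.0390). ITGAE, the lymphocyte αE subunit whose ligand is E-cadherin, had 1778, 1544 and 1421 against 1378, 1613 and 1531 (-0.069 ± 0.16, edgeR adjusted p = 0.759). Its sign turned under library size alone (0.42), upper-quartile scaling (0.11) and the fit on protein-coding genes (0.11), and without EV library B1 (0.021) or PRL3 library B9 (0.0014). ITGAE was called higher with library size alone (edgeR adjusted p = 0.0346) and lower with all uniquely aligned reads (-0.55, edgeR adjusted p = 0.0232). ITGAX, a leukocyte subunit, had 74.3, 141 and 123 against 129, 193 and 134, with overlap (edgeR adjusted p = 0.326).

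Shares within a family do not depend on how libraries are scaled, and they show the change of composition. ITGB5 made up 39.9%, 51.1% and 46.3% of the summed β level per kb in the EV libraries and 30.4%, 34.2% and 30.0% in the PRL3 libraries. ITGB8 went from 15.8%, 13.5% and 17.7% to 38.1%, 33.7% and 35%, so that ITGB8 and ITGB5 overlapped at the top of the order in PRL3 libraries per kb of exon. Per kb of coding length ITGB8 was apart from ITGB5 there, at 3986 to 4380 against 1365 to 1718. ITGB3, from its partial counts, went from between 9.73% and 11.5% to between 5.75% and 6.67%. ITGB1 had 30.4%, 18.5% and 20.5% in EV and 16.7%, 16.7% and 20.5% in PRL3 libraries, and the groups overlapped. Per kb, the ratio of ITGB8 to ITGB5 was 0.348 ± 0.0728 (SD, n = 3) in EV and 1.14 ± 0.137 in PRL3 libraries, and that of ITGA2 to ITGA3 was 0.107 ± 0.0385 and 0.558 ± 0.0654 (two-sided exact permutation p = 0.1 for each pair, the smallest possible; both pairs were chosen after their values were seen). With coding length the ratio of ITGB8 to ITGB5 was 0.869 ± 0.182 and 2.84 ± 0.342, so its size depends on the length used. The length of a gene is the same in every library. The relative rise is therefore equal on both scales by construction, and the second scale is no check of it. Among α genes, ITGA3 went from 31.7%, 42.2% and 36.6% of the summed level to 22.7%, 25.6% and 22.6%, and ITGA2 from between 3.05% and 4.69% to between 12.5% and 14%. ITGA6 kept a similar share, at 28.6%, 19.2% and 21.6% in EV and 25.8%, 24.1% and 27.4% in PRL3 libraries. Its range in PRL3 libraries overlapped that of ITGA3 at the top of the order per kb of exon. Per kb of coding length ITGA3 was apart from ITGA6 in PRL3 libraries, at 2516 to 3108 against 1931 to 2165.

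**Figure D3:**
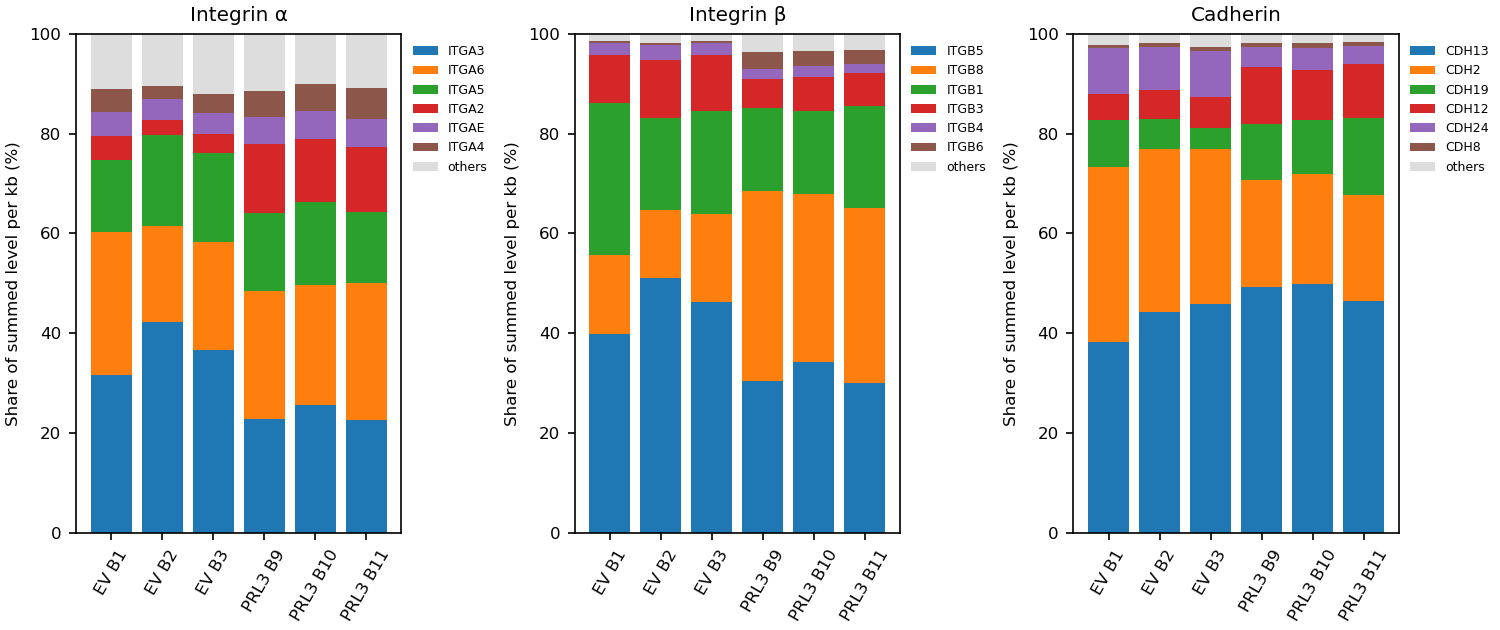
Share of the summed level per kb of exon (%) taken by the 6 leading genes of each family in each library, with all other genes of the family in grey. ITGB8 takes 33.7% to 38.1% of the β level in PRL3 libraries against 13.5% to 17.7% in EV libraries, and CDH2 21.2% to 22.0% of the cadherin level against 31.1% to 35%.

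Cadherins moved in both directions, and CDH13 and CDH2 kept the top of the order while their ratio changed. CDH13 (T-cadherin) had 6855, 7337 and 7616 normalized counts in EV libraries and 10443, 9993 and 9954 in PRL3 libraries (log2 0.48 ± 0.14 SE, edgeR adjusted p = 0.0131). All PRL3 libraries were above all EV libraries, but scaled by all uniquely aligned reads the difference was 0.0012 and not called. CDH2 (N-cadherin) had 4872, 4222 and 4015 against 3541, 3420 and 3531, without overlap, and did not pass the threshold (-0.32 ± 0.14, edgeR adjusted p = 0.0877). The sign of CDH2 turned to 0.18 with library size alone, while it was called lower by DESeq2 (-0.36, DESeq2 adjusted p = 0.0475) and with all uniquely aligned reads as the scale (-0.80, edgeR adjusted p = 0.00124). Per kb, the ratio of CDH2 to CDH13 was 0.776 ± 0.122 (SD, n = 3) in EV and 0.444 ± 0.0106 in PRL3 libraries, a pair chosen after its values were seen (two-sided exact permutation p = 0.1, again the smallest possible). CDH1 was not tested, with 9.74, 2.41 and 0 normalized counts in EV and 12.4, 3.72 and 11.8 in PRL3 libraries, so a change of E-cadherin was not detectable at this depth.

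The other called cadherins were of the type II kind, many of them known from the nervous system and neural crest. CDH12 (brain cadherin) had 486, 492 and 519 normalized counts in EV libraries and 1234, 1038 and 1187 in PRL3 libraries, 2.31-fold higher without overlap (log2 1.21 ± 0.17 SE, edgeR adjusted p = 1.05e-04). CDH19, a cadherin of Schwann cell precursors, had 1044, 622 and 439 against 1474, 1342 and 2045 (1.21 ± 0.27, edgeR adjusted p = 0.00317). The EV libraries of CDH19 were spread widely but all lay below the PRL3 libraries, and the call was lost only narrowly with all uniquely aligned reads as the scale (edgeR adjusted p = 0.0501). CDH24 fell, with 555, 486 and 524 against 286, 291 and 267 (-0.89 ± 0.20, edgeR adjusted p = 0.00308), a call lost with library size alone (-0.40, 0.138). CDH7, from a low level, had 92.6, 114 and 60.01 against 26.8, 38.0 and 23.6 (-1.58 ± 0.45, edgeR adjusted p = 0.0126), a call that was lost without PRL3 library B9 (0.0537) or B11 (0.0668) and with library size alone (0.0626). CDH8 had 166, 154 and 182 against 259, 278 and 228, without overlap but not past the threshold (0.61 ± 0.25, edgeR adjusted p = 0.0639). CDH8 was called higher without EV library B3 (edgeR adjusted p = 0.0412) and with upper-quartile factors (0.0221). It was also called higher among protein-coding genes (0.0102) and on the scale of library size (0.00374).

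The remaining members were low. CDH6, CDH10, CDH11, CDH18, CDH23, CDH26 and ITGBL1 passed the filter with between 1.49 and 83.6 normalized counts in a library, and did not pass the test (edgeR adjusted p from 0.214 for CDH18 to 0.986 for CDH11). The 14 members that were not tested were CDH1, CDH3, CDH4, CDH5 (VE-cadherin), CDH9, CDH15, CDH16, CDH17, CDH20, CDH22, ITGA8, ITGAD, ITGAL and ITGAM, with at most 26 counts in any library. Their fold changes are not given.

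The intracellular and matrix partners were described from 4 lists chosen by role, with 116 genes of which 107 were tested. Over the lists 37 were lower and 17 higher in PRL3, beside 31.6% and 15.2% of tested protein-coding genes. With library size alone the split was 18 lower and 38 higher, and with all uniquely aligned reads 60 and 5. All 39 genes of the integrin adaptor list were tested, with 14 lower and 5 higher (median log2 fold change -0.29). The fallers by smallest p were CIB1 (-1.94 ± 0.16, edgeR adjusted p = 7.70e-06), which binds the αIIb tail, CD151 (-2.21 ± 0.19), the tetraspanin that associates with α3β1, ILK (-1.42 ± 0.16) and TLN1, the talin that activates integrins (-1.24 ± 0.16). CD151 had 13840, 17169 and 15751 normalized counts in EV libraries and 2572, 4233 and 3330 in PRL3 libraries. The adaptors KANK1 (0.80 ± 0.15), TNS1 (0.88 ± 0.18), LPP (0.77 ± 0.17) and FERMT3 (0.96 ± 0.33) rose, but all 4 lost their calls with all uniquely aligned reads as the scale (edgeR adjusted p = 0.139, 0.0883, 0.188 and 0.290). FERMT3 lost its call also without EV library B3, PRL3 library B10 or PRL3 library B11 (edgeR adjusted p = 0.0656, 0.214 and 0.0725). VCL, the vinculin gene, fell by 0.42 on the log2 scale (edgeR adjusted p = 0.0264) but lost its call without PRL3 library B9, B10 or B11 (0.101, 0.0573 and 0.115). The VCL call was also lost with upper-quartile factors, protein-coding genes only, no low-count filter and a threshold of 0.01. With library size alone the log2 fold change of VCL was 0.073 and not called. The focal adhesion kinase gene PTK2 was at 0.15 ± 0.15 (edgeR adjusted p = 0.426), or -0.33 with all uniquely aligned reads as the scale, and was called higher with library size alone (0.65, edgeR adjusted p = 0.00318).

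Of the 22 genes of the catenin and junction plaque list 21 were tested, with 8 lower and 6 higher (median -0.066). Among catenin genes, CTNNA1 (α-catenin) was lower at -0.96 ± 0.14 (edgeR adjusted p = 1.74e-04), CTNNB1 (β-catenin) at -0.79 ± 0.16 (edgeR adjusted p = 0.00145) and CTNND1 (p120) at -0.47 ± 0.15 (edgeR adjusted p = 0.0202). ARVCF was also lower (-1.16 ± 0.36, edgeR adjusted p = 0.0182), though its groups overlapped. The CTNND1 call was lost without EV library B1, PRL3 library B10 or PRL3 library B11 (edgeR adjusted p = 0.0520, 0.0881 and 0.0813), among protein-coding genes (0.111) and with upper-quartile factors (0.121), and its value was 0.028 with library size alone. CTNNB1 lost its call with library size alone (-0.30, edgeR adjusted p = 0.0847). Plakoglobin, JUP (-0.45 ± 0.30, edgeR adjusted p = 0.244), and the α-catenin genes CTNNA2 and CTNNA3 did not pass the test. CTNNB1 had 25775, 20796 and 20619 normalized counts in EV libraries and 11443, 14348 and 13112 in PRL3 libraries. CTNNBIP1, an inhibitor of β-catenin (-2.12 ± 0.19), the desmosomal plakophilin gene PKP3 (-2.13 ± 0.22) and NECTIN2 (-1.24 ± 0.20) were also lower. Another plakophilin gene, PKP2 (1.42 ± 0.19), the afadin gene AFDN (0.96 ± 0.17), the scaffold gene MAGI1 (0.60 ± 0.15) and CTNND2, a neural δ-catenin (0.98 ± 0.29), were higher. CTNND2 lost its call without PRL3 library B9 or B10 (edgeR adjusted p = 0.0529 and 0.0724), and CTNND2 and MAGI1 lost theirs with all uniquely aligned reads as the scale (0.160 and 0.587).

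Of the 35 integrin ligand genes 32 were tested, with 11 lower and 4 higher (median -0.35). TGFBI (-1.10 ± 0.15), the laminin β2 gene LAMB2 (-1.13 ± 0.16), the basement membrane linker NID1 (-0.81 ± 0.14) and fibronectin, FN1 (-0.91 ± 0.17, edgeR adjusted p = 8.43e-04), were lower. FN1 had 1179, 1550 and 1283 normalized counts in EV libraries and 731, 707 and 699 in PRL3 libraries. CCN1 (1.15 ± 0.20) and THBS1 (0.81 ± 0.16), matricellular proteins that bind integrins, were higher. With library size alone NID1 and FN1 were not called (edgeR adjusted p = 0.0768 and 0.0650), and with all uniquely aligned reads THBS1 was not (0.195). CCN2 (0.48 ± 0.17, edgeR adjusted p = 0.0336) lost its call without any 1 of EV libraries B1 and B2 and PRL3 libraries B9, B10 and B11 (0.0760, 0.0867, 0.0549, 0.103 and 0.0904), and stood at 0.010 with all uniquely aligned reads. MADCAM1, the α4β7 ligand, had at most 36.4 normalized counts and was called higher (2.17 ± 0.83, edgeR adjusted p = 0.0496), a call lost without EV library B2 or B3 (0.0971 and 0.0510) and without PRL3 library B9, B10 or B11 (0.175, 0.0819 and 0.235), and also with RLE scaling (0.0533), limma-voom (0.103), no low-count filter (0.0817) and all uniquely aligned reads (0.118).

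Of the 20 genes on the list of regulators of the cadherin switch 15 were tested, with 4 lower and 2 higher (median -0.57). The list also holds VIM and EPCAM, which are markers and not regulators, and VIM is among the 4 lower genes. ZEB2, a repressor of CDH1 that melanocytes express, had 3158, 2440 and 3476 normalized counts in EV libraries and 9437, 8848 and 9603 in PRL3 libraries (1.62 ± 0.16, edgeR adjusted p = 1.45e-05), and TCF4, an E-protein, was also higher (1.40 ± 0.18). PRRX1 (-1.51 ± 0.19), TCF3 (-1.14 ± 0.15), the vimentin gene VIM (-0.91 ± 0.16) and FOXC2 (-0.70 ± 0.22) were lower. FOXC2 lost its call without EV library B2 or PRL3 library B9, B10 or B11 (edgeR adjusted p = 0.0743, 0.0524, 0.0586 and 0.107), with upper-quartile factors (0.0783) and with library size alone (0.466). ZEB1 (0.45 ± 0.18, edgeR adjusted p = 0.0570), TWIST1 (-0.46 ± 0.20, edgeR adjusted p = 0.0758) and SNAI2 (0.59 ± 0.35, edgeR adjusted p = 0.202) did not pass. ZEB1 was called higher without EV library B1 (edgeR adjusted p = 0.00356) and under the same 6 alternatives as ITGA1 (adjusted p from 7.11e-04 to 0.0329), and stood at -0.036 with all uniquely aligned reads. TWIST1 was called lower without EV library B3 (edgeR adjusted p = 0.0450), by DESeq2 (0.0471) and with all uniquely aligned reads (0.00188), and stood at 0.032 with library size alone, where SNAI2 was called higher (1.08, edgeR adjusted p = 0.0294).

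**Figure D4:**
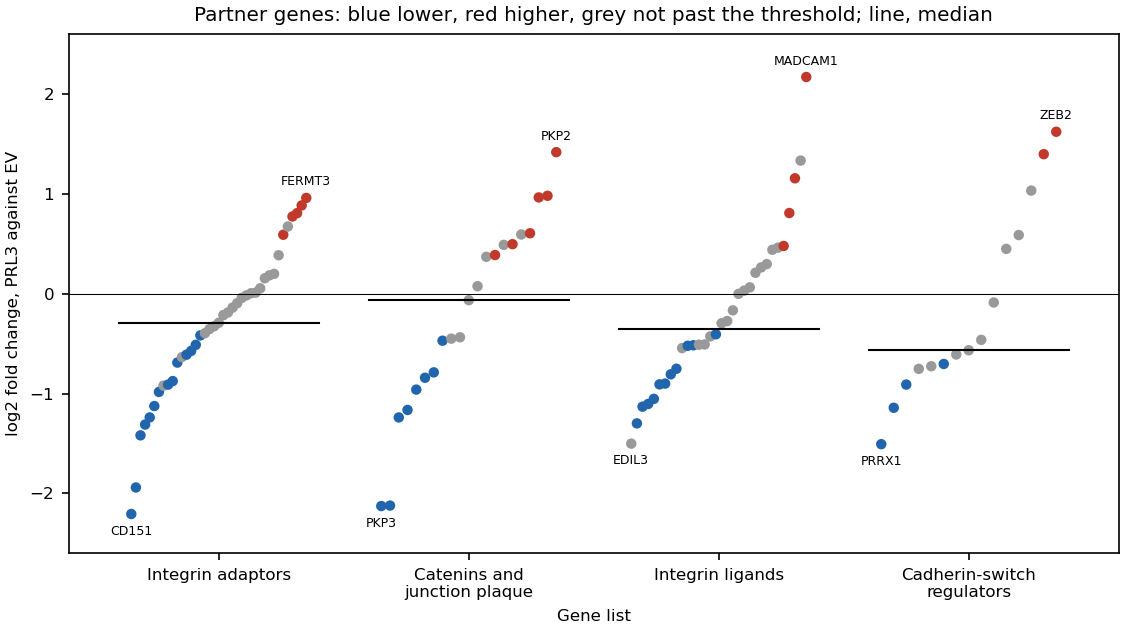
Log2 fold change of PRL3 against EV for the tested genes of the 4 partner lists, 1 point per gene sorted within each list, in blue where lower, red where higher and grey where not past the threshold, with the median as a line and the lowest and highest gene named. The adaptor list runs from CD151 at -2.21 to FERMT3 at 0.96, and ZEB2 tops the cadherin-switch list at 1.62.

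Gene length moved with direction over the whole table, and members are mostly long genes. With tested protein-coding genes in 3 classes of equal number, of those up to 18.6 kb, 45.7% were lower and 10.9% higher in PRL3, of those over 60.3 kb 16.1% and 19.9%, and in between 33.1% and 14.8%. Of the 36 tested members, 25 were in the longest class (5 lower, 6 higher), 8 in the middle class (6 lower, the others not called) and 3 in the shortest class (1 lower, 1 higher). The median gene length was 48.2 kb for members that were lower, 103 kb for those that were higher and 136 kb for those not called. The part of gene length in the members' changes was not tested.

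Noncoding genes that lie inside member loci were looked at because the PRL3 libraries held more reads off annotated exons. On the strand of the host, 14 such genes in 9 members were tested, and 9 were higher in PRL3 while the other 5 were not called (median log2 fold change 1.44), beside 43.3% higher and 3.07% lower of all 2506 such genes in protein-coding loci, these included (median 1.34). On the opposite strand 3 of 8 were higher and 1 lower (median 0.97), beside 16.1% and 17.1% of 1173 (median 0.31). ITGB5 was lower (-1.18), while the pseudogene ENO1P3 inside it, on the same strand, was higher by 2.22 ± 0.42 (edgeR adjusted p = 8.98e-04), at 41.2 mean normalized counts in EV and 195 in PRL3 libraries. In CDH2 a lncRNA gene on the same strand was higher by 1.69 ± 0.51 (edgeR adjusted p = 0.0169) where CDH2 itself was at -0.32. CDH13 held 3 same-strand noncoding genes that were higher, the strongest by p at 1.83 ± 0.26 (edgeR adjusted p = 1.00e-04). In the CDH12 locus the pseudogene HSPD1P1, on the opposite strand, was lower (-2.47 ± 0.37, edgeR adjusted p = 1.86e-04) while CDH12 was higher. Short pseudogenes can share reads with their parent genes, so these counts are uncertain. For inner genes on the strand of the host, counts per gene do not separate intron reads of the host from transcripts of the inner gene. There the 2 cannot be told apart. Reads were counted by strand, so this limit concerns the same-strand genes.

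**Figure D5:**
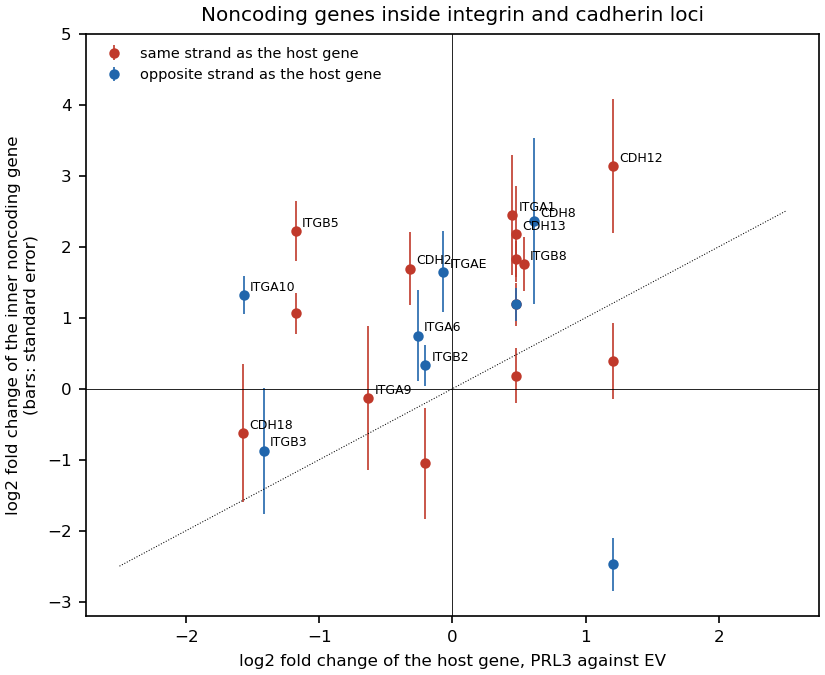
Log2 fold change of noncoding genes inside member loci (vertical, with standard error) against that of the host gene (horizontal), in red for genes on the strand of the host and blue for the opposite strand, with a dotted line at equal change. Both inner genes of ITGB5 lie above 0 at 1.06 and 2.22 while the host is at -1.18.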

How the data were processed

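4sU-labelled RNA of A375 cells was sequenced in 6 libraries. The authors checked reads with FastQC 0.11.3, aligned them to GRCh38 with STAR 2.5.1b and counted them per Ensembl release 91 gene with HTSeq 0.6.1 in its reverse-strand setting. The deposited values are raw counts, whole numbers without normalization, of reads on exons, with separate lines for reads on no exon, which were kept out of library sizes and tests (28.7% to 69.1% of uniquely aligned reads). Symbols, lengths and coordinates came from GENCODE 44 (57532 of 58243 identifiers matched).

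Groups were compared with edgeR 4.0.16 in R 4.3.3 (TMM scaling, filterByExpr, quasi-likelihood test, Benjamini-Hochberg over 23884 genes, threshold 0.05). Standard errors follow from the F statistic and the fold change. Normalized counts are counts scaled to the mean effective library size. TMM factors were 0.816 to 0.894 in EV and 1.12 to 1.25 in PRL3 libraries. Exact permutation tests used scipy 1.17.1, and summaries used pandas 2.3.3. Levels per kb used the union of exons. The procedure was tested on simulated data over 22743 genes, of which 200 were changed 2-fold. Of these 89 were recovered (44.5%), with 8 false calls among the other genes. In the real data far more genes were called, 5426 lower and 4783 higher, so the adjusted threshold was stricter in the simulation. The recovered share therefore does not measure how many 2-fold changes were missed here.

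Alternatives were scaling by RLE, by upper quartiles or by library size, all uniquely aligned reads as the scale, DESeq2 1.42.0, limma-voom (limma 3.58.1), no low-count filter, at least 10 counts in every library, protein-coding genes only, an adjusted p of 0.01, coding length, and leaving out each library. Members, gene lists and tests were chosen with earlier results of these data known. Members with a mean normalized count of at least 100 are given in every library. In each partner list up to 4 genes in each direction with the smallest p are named, plus FN1, CTNNB1, CTNNA1, CTNND1, TLN1, PTK2, VCL, SNAI2, ZEB1, ZEB2, TWIST1 and VIM. The genes ARVCF, JUP, CTNNA2 and CTNNA3 are named beside the other catenins. Sequences are from the RefSeq promoter table (GRCh38.p14).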

Additional observations from a re-analysis of the deposited data

Results flagged for a closer look

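Reads outside the counts per gene also separated the groups. Uniquely aligned reads that met no annotated exon on their strand made up 33.3% ± 6.75 (SD, n = 3) in EV libraries and 66.3% ± 3.18 in PRL3 libraries, without overlap (two-sided exact permutation p = 0.1, the lowest possible with 3 against 3). This was flagged because the signal lies in lines of the count files that no comparison of genes uses and is above its level in the control libraries. Its part in the fold changes of integrin and cadherin genes was not tested.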

How the results depend on the processing

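No paired analysis was possible because the library numbers of the EV and PRL3 groups are not shared. The median log2 fold change of all genes, 0.11 with TMM, was 0.29 with upper-quartile factors, 0.60 with library size alone, 0.26 without the low-count filter and -0.37 with all uniquely aligned reads, so log2 differences are relative to that choice. With all uniquely aligned reads 8525 of all genes were lower and 1912 higher, with library size alone 3078 and 9514, and at an adjusted p of 0.01 the higher genes numbered 2719. Members went to 3 higher with all uniquely aligned reads, to 6 lower and 12 higher with library size alone, and to 4 higher at 0.01. Partner genes went to 60 lower and 5 higher, to 18 lower and 38 higher, and to 10 higher under the same 3 settings. Leaving out each library gave 10 to 18 higher partner genes, with the counts under 12 coming from leaving out PRL3 library B9, B10 or B11 (11, 10 and 11), beside 15 to 18 without an EV library. The cause was not tested.

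Signs turned with library size alone for the α median (0.19), CDH2 (0.18), ITGA6 (0.24), ITGAE (0.42), ITGB2 (0.27), CTNND1 (0.028), VCL (0.073) and TWIST1 (0.032), and with all uniquely aligned reads for ITGA1 (-0.041), ITGA4 (-0.31), ITGAX (-0.036), PTK2 (-0.33) and ZEB1 (-0.036). The cadherin median was -0.044 without the low-count filter. ITGAE was 0.11 with upper-quartile scaling and 0.11 among protein-coding genes, and from -0.15 to 0.021 with 1 library left out, above 0 without EV library B1 (0.021) or PRL3 library B9 (0.0014). Levels per kb of coding length in place of exon length moved shares in EV and PRL3 libraries to 31.4% and 21.0% for ITGB1, 31.7% and 18.6% for ITGB5, 26.9% and 52.5% for ITGB8, 17.2% and 19.3% for ITGA6, 29.0% and 18.4% for CDH2 and 53.4% and 58.8% for CDH13, and to 26.2% for ITGA3 in PRL3 libraries. On that scale the mean of ITGB1 was above that of ITGB5 in PRL3 libraries, but their ranges overlapped (1524 to 1853 and 1365 to 1718). ITGB8 had the highest β mean in PRL3 libraries on both scales, and was apart from the next gene only per kb of coding length.

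Depth limits the 14 members with at most 26 counts in any library, for which no change was detectable, and leaves wide errors for the 10 tested members with a mean under 100.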
